A study of Mus musculus with 2 samples.

Results

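The heat shock and chaperone genes described here are 10 genes, Hspa1a, Hspa1b, Hsph1, Hspb1, Dnajb1, Hsp90aa1, Hspa8, Hspd1, Hspe1 and Bag3, out of 33696 genes counted in single cells of mouse liver. They were taken by symbol, and all 10 were found. The list was chosen by earlier results of these data, in which Hspa1b in lymphoid and monocyte classes and Hspb1 in endothelial cells were among the lower CPM values of 1 library. The series holds 1 library of cells from the liver of SLC22A18-/- mice and 1 library from SLC22A18+/+ mice. Slc22a18 is an imprinted gene for a membrane transporter of the solute carrier family. Both libraries were made from suspended single cells with the droplet-based Chromium 3′ chemistry, which counts unique molecular identifiers (UMIs), each marking 1 captured RNA molecule. The sources used here do not give strain, age, sex, the deleted exons, the number of animals behind each library or the way in which the liver was dissociated. With 1 library per genotype there is no replicate, so every difference below is between 2 libraries, and genotype, animal and dissociation cannot be told apart. The intervals are exact 95% intervals and cover counting error only.

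Heat shock proteins are chaperones that bind unfolded or newly made proteins and help them to fold. When damaged proteins accumulate, heat shock factor 1 (HSF1) forms trimers that bind repeats of GAA and its reverse complement, the heat shock element, and transcription of the inducible members rises within minutes. Enzymatic dissociation of a tissue is known to raise inducible heat shock genes together with immediate early genes such as Fos and Jun, so in suspended liver cells these transcripts can record handling as well as the state of the tissue.

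The stretches before the start sites are shown because the 2 inducible HSP70 genes, whose RNAs varied together below, carry nearly the same one, and because Hspb1 carries 2 copies of the element and Hspe1 a longer array of it. Sequences are from RefSeq on GRCm38.p6, written 5′ to 3′ on the gene's strand and ending at the base before the start, except for Hspe1, and capitals mark the match to the heat shock element. They lie at chr17:34972157-34972406 on the minus strand for Hspa1a, chr17:34959239-34959488 on the minus strand for Hspa1b, chr5:135887669-135887918 on the plus strand for Hspb1 and chr1:55088053-55088082 on the plus strand for Hspe1.
Hspa1a: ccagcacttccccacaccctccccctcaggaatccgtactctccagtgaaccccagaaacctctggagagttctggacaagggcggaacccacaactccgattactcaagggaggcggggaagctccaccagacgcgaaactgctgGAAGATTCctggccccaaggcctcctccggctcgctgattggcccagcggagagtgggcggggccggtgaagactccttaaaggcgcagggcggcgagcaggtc
Hspa1b: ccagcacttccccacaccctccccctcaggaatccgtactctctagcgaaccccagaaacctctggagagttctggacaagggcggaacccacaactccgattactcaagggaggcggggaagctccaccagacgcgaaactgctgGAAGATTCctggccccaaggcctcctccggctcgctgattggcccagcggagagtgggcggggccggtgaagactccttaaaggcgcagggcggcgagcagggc
Hspb1: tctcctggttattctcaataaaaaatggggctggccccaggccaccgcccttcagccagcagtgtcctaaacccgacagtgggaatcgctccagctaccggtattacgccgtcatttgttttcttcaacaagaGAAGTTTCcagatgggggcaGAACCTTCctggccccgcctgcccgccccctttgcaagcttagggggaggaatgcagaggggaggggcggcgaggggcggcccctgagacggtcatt
Hspe1: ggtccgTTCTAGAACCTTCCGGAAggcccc

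The upstream stretches of Hspa1a and Hspa1b were identical at 247 of 250 positions. Both held 1 match to GAANNTTC, the same on either strand, that began at -104 from the start, and 1 CCAAT box (ATTGG on the gene's strand) at -67. Hspb1 held 2 matches to GAANNTTC, at -117 and -97, and no CCAAT box. The Hspe1 stretch runs from -95 to -66 and holds a longer array, in which overlapping matches to TTCNNGAANNTTC (at -89) and its reverse complement GAANNTTCNNGAA (at -84) contain the shorter motif. Hspe1 and Hspd1 are transcribed outward from starts 216 bases apart, and the same array begins at -144 from this start of Hspd1. Another start of Hspd1 lies 95 bases from that of Hspe1 without facing outward, and its window held no match of 2 or 3 units. Of 32851 windows of 250 bases before RefSeq starts, 6.69% held GAANNTTC, 0.466% held a match of 3 units on either strand, and 33.8% held a CCAAT box. The windows of Hsph1 and Dnajb1 held no exact match to the strings of 2 or 3 units searched here. Bag3 held none as well, and had a TATAA box at -30, a motif found in 22.8% of windows on either strand. Hsp90aa1 and Hspa8 had no entry among the windows. A match is a string of letters and does not show that a factor binds there. The order TTCNNGAA by itself and imperfect units were not searched, so a window without a match may still hold another form of the element.

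The knockout-labelled library held 11741 barcodes with 103478998 UMIs, and the wild-type library held 12796 barcodes with 105556354 UMIs. After filtering, 11134 and 12029 cells remained, with medians of 5854 and 5362 UMIs per cell, and 34 barcode strings were kept in both libraries. Slc22a18 itself stood at 21.4 CPM (UMIs of the gene per 1000000 UMIs of the cells summed) in the library labelled SLC22A18-/- and 24.6 CPM in the SLC22A18+/+ library (2063 and 2386 UMIs). Since 3′ tags may lie outside the deleted part, this neither checks nor contradicts the label, and the first library is called the knockout-labelled library throughout. Cells were clustered without the genes discussed here, and clusters were named from marker genes, so that each cell type name below stands for cells that are like that type. Of the classes, 9 reached 100 cells in both libraries, namely hepatocytes (3284 and 3336 cells in the knockout-labelled and wild-type libraries), endothelial cells (2595 and 2764), Kupffer cells, the resident macrophages (1457 and 1246), T cells (864 and 876), B cells (720 and 992), stellate cells and fibroblasts (289 and 361), NK cells and ILC1 (142 and 213), monocytes (145 and 200) and conventional dendritic cells (114 and 113). Clusters that could not be named held 11.3% and 13.4% of cells and were left out of the classes. Most hepatocytes had nucleus-like profiles, with a median of 0.940% and 0.961% mitochondrial UMIs against 4.11% and 4.003% in Kupffer cells. Free RNA was present in both libraries, because Alb, the hepatocyte albumin gene, was detected in 99.7% to 100% of cells of every class.

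The inducible HSP70 genes Hspa1a and Hspa1b were highest in the endothelial, stellate and Kupffer classes, called the sinusoidal classes here. Hspa1a stood at 555 and 726.7 CPM in stellate cells, 508 and 670.04 CPM in endothelial cells and 494 and 729.7 CPM in Kupffer cells (knockout-labelled and wild-type library, in this order here and below), against 15.3 and 23.2 CPM in hepatocytes. The top class exceeded the lowest by 36.3 times in the knockout-labelled library and 31.5 times in the wild-type library. In the wild-type library Kupffer and stellate cells did not differ in Hspa1a beyond their intervals, and in the knockout-labelled library endothelial and Kupffer cells did not. The mitochondrial chaperonin genes had another order: Hspd1 was highest in hepatocytes, at 209 and 259.6 CPM, and lowest in endothelial cells, at 72.1 and 78.5 CPM. Hspe1 was highest in dendritic cells of the knockout-labelled library, at 278 CPM against 254 CPM in hepatocytes. In the wild-type library it was highest in hepatocytes, at 319 CPM against 294 CPM in dendritic cells. All 10 members together made up 2970 and 3406 CPM in endothelial cells, 2583 and 3393 CPM in Kupffer cells, 3091 and 3631 CPM in stellate cells and 827 and 1066 CPM in hepatocytes.

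**Figure D1:**
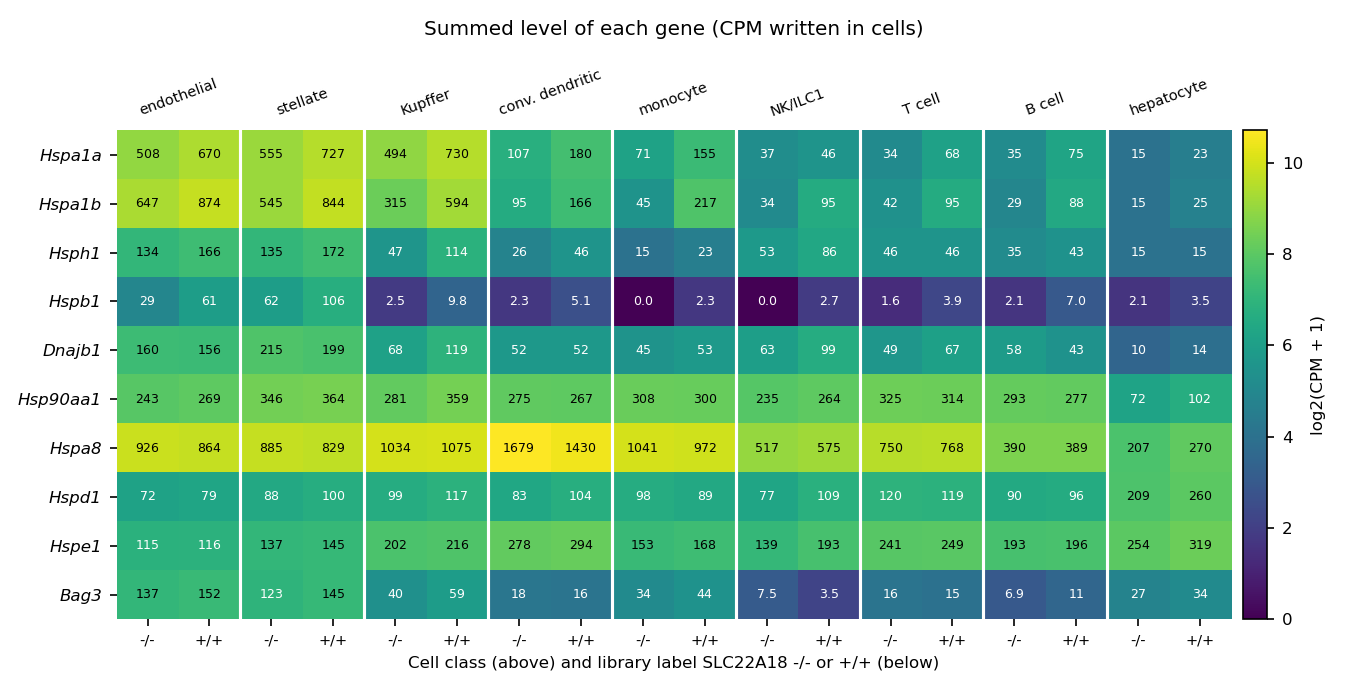
Level of each of the 10 genes (vertical axis) in the 9 classes and 2 libraries (horizontal axis), as CPM written in each field and as log2(CPM + 1) in colour. Hspa1a, Hspa1b, Hsph1, Dnajb1 and Bag3 are highest in endothelial, stellate or Kupffer cells, whereas Hspd1 is highest in hepatocytes, at 209 and 259.6 CPM.

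The first comparison asked how the members differed between the knockout-labelled and the wild-type library within each class. The pairs that met the size rule given next were all lower in the knockout-labelled library: Hspa1a in B cells, T cells and monocytes, Hspa1b in these and in NK cells and ILC1, Hsph1 in Kupffer cells and Hspb1 in endothelial cells. These 9 of 90 pairs of gene and class met a size rule of at least 50 UMIs over both libraries, a CPM ratio of at least 2, a 95% interval of the ratio that excludes 1, and a UMI in at least 5% of cells in the higher library. No pair met the rule in the other direction. Over all 90088 pairs of a gene with 50 UMIs and a class, 0.376% met the rule as lower in the knockout-labelled library and 0.543% as higher. By class, the share of all genes that met it as higher was 0.0981% in B cells, 0.105% in Kupffer cells, 0.292% in NK cells and ILC1, 0.948% in T cells, 0.871% in dendritic cells, 0.0571% in endothelial cells, 0.295% in hepatocytes, 3.74% in monocytes and 0.409% in stellate cells. Where 0 members met it as lower, the share of all genes was 1.76% in dendritic cells, 0.121% in hepatocytes and 0.426% in stellate cells. Because of the way the members were chosen, these counts are a description and support nothing by themselves. Of the 90 pairs, 83 had 50 UMIs or more, and the 7 others were Hspb1 in B, T, NK, monocyte and dendritic classes, Hsph1 in monocytes and Bag3 in NK cells and ILC1.

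In the compared classes smaller differences also lay mostly on one side. The interval of the ratio lay below 1, lower in the knockout-labelled library, for 47 pairs (11.2% of all pairs) and above 1 for 4 pairs (12.1% of all pairs). In Kupffer cells it lay below 1 for 10 of 10 members (13.1% of all genes with 50 UMIs there) and above 1 for 0 (9.01%), and the median log2 ratio was -0.56, against -0.03 over all genes. Most of these UMIs came from Kupffer cluster 0. In Kupffer cluster 6, with fewer UMIs, the interval lay below 1 for Hspd1 alone and above 1 for Hspa8 alone (1.22). In Kupffer cluster 14 it lay below 1 for Hspa1b alone. In hepatocytes it lay below 1 for 9 of 10 members (15.7% of all genes) and above 1 for 0 (28.5%), with a median log2 ratio of -0.41 against 0.07. Hsph1 was the remaining hepatocyte gene, at 15.4 CPM in both libraries. It was lower in 4 and higher in 2 of 6 hepatocyte clusters with at least 20 UMIs, with a ratio of 2.38 (1.72 to 3.31) in cluster 13. The unnamed cluster 4, with 114 and 189 cells, differed. Its intervals lay above 1 for Hspb1 (2.56), Dnajb1 (1.76), Hsp90aa1 (1.42), Hspa8 (1.38), Hspd1 (1.23) and Hspe1 (1.27). Those of the other members included 1. In the unnamed clusters 3, 16 and 17 Hspa1a had ratios of 0.709, 0.643 and 0.759.

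Among the remaining classes, endothelial cells had 7 of 10 members below 1 (15.1% of all genes) and 1 above (9.03%), with a median log2 ratio of -0.15 against -0.03. Stellate cells had 6 of 10 below (9.32%) and 1 above (8.43%), with a median of -0.21 against -0.03. The gene above 1 was Hspa8, the constitutive cytosolic HSP70, in both. NK cells and ILC1 had 5 of 8 below 1 (6.12%, with 0 above, 4.58%) and T cells 3 of 9 (6.96%, with 0 above, 13.5%). Dendritic cells had 3 of 9 below 1 (10.1%, with 1 above, 7.89%), B cells 2 of 9 (7.67%, with 1 above, 5.4%) and monocytes 2 of 8 (9.63%, with 0 above, 12.1%). The median log2 ratios of the lymphoid, dendritic and monocyte classes were -0.48, -0.03, -0.08, -0.10 and -0.18 in the same order, against -0.01, 0.05, -0.01, -0.02 and 0.00 over all genes. Over all cells, 10 of 10 members lay below 1 (21.5% of all genes, with 23.6% above) and Hspb1 alone met the size rule as lower (0.058%, with 0.148% higher).

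**Figure D2:**
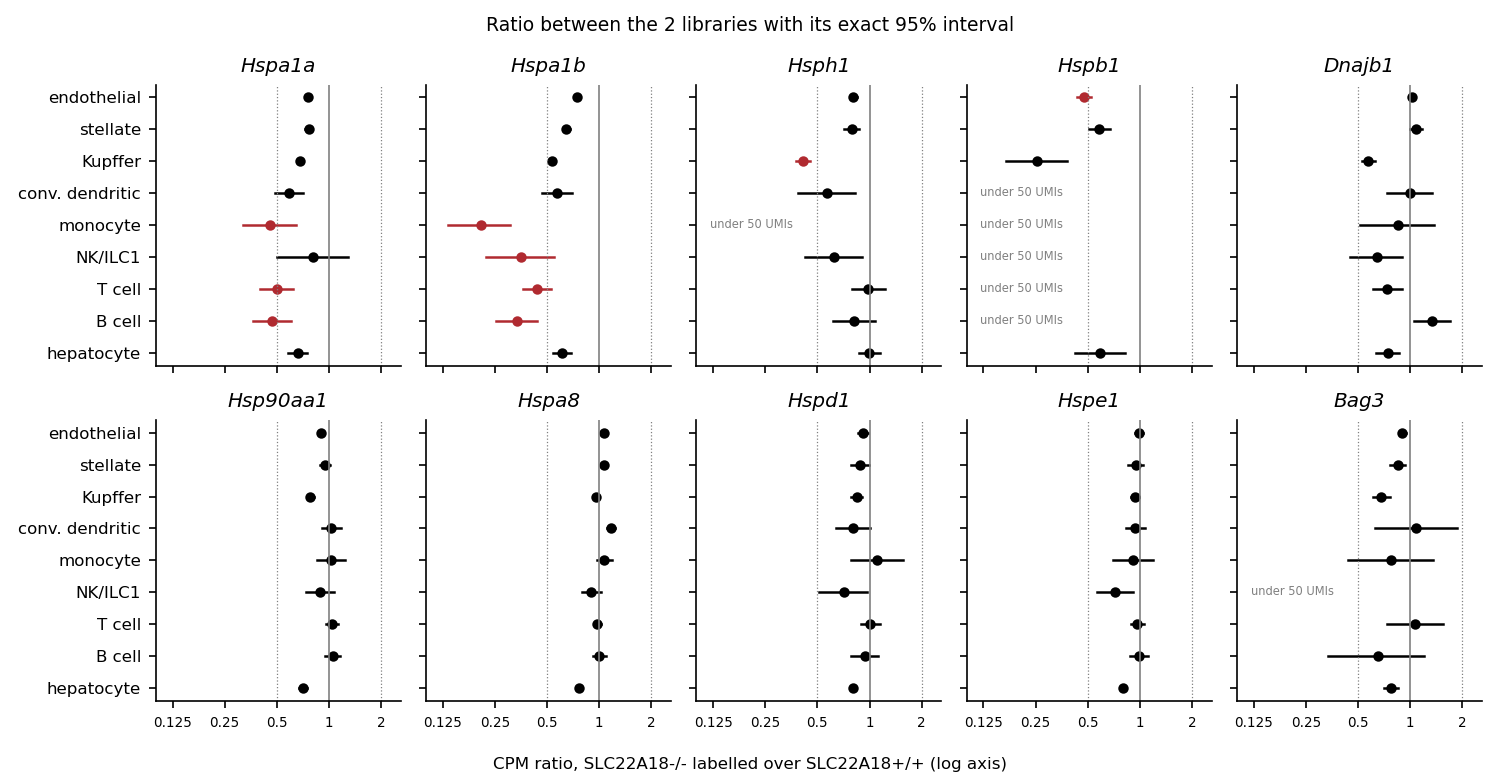
CPM ratio of the knockout-labelled over the wild-type library (horizontal log axis) for each gene (panels) and class (vertical axis), with points for the ratio and lines for its exact 95% interval; red marks the 9 pairs that met the size rule and dotted lines mark ratios of 0.5 and 2. Hspa1a and Hspa1b lie left of 1 in every class, whereas Hspa8 outside hepatocytes lies between 0.900 in NK cells and ILC1 and 1.17 in dendritic cells.

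Hspa1a and Hspa1b encode the stress-inducible cytosolic HSP70, which is made at low level in unstressed cells. The genes lie 9951 bases apart on the minus strand of chromosome 17, at chr17:34969190-34972156 and chr17:34956436-34959238 (GRCm38, GENCODE vM21). Their transcripts were not compared here, so how well their reads can be told apart is uncertain and their sum is the safer value. The sum was 809 and 1323 CPM in Kupffer cells, a ratio of 0.611 (0.596 to 0.626). In endothelial cells it was 1154 and 1544 CPM, a ratio of 0.748 (0.736 to 0.759). In stellate cells it was 1100.03 and 1571 CPM, a ratio of 0.7001 (0.677 to 0.724). The 3 sinusoidal classes thus had less HSP70 RNA in the knockout-labelled library, by more than counting error and by less than a factor of 2. In hepatocytes the sum was 30.6 and 48.2 CPM (ratio 0.636, 0.583 to 0.692), at a level far below. Without the clusters of under 2% mitochondrial UMIs, an alternative chosen after seeing the data that leaves hepatocyte clusters 28 and 29, the ratios were 0.437 for Hspa1a and 0.319 for Hspa1b, and both met the size rule. Hspa1a overlaps the gene Gm20481 on the opposite strand, which had 8 and 9 UMIs in all.

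Within the clusters of the named classes the direction of the HSP70 pair was mostly the same. Hspa1a and Hspa1b were lower in the knockout-labelled library in 6 of 6 endothelial clusters, 2 of 2 stellate clusters and 3 of 3 T cell clusters with at least 20 UMIs. In Kupffer cells the difference lay mainly in cluster 0, with ratios of 0.675 for Hspa1a and 0.529 for Hspa1b. In Kupffer cluster 6 they were 0.865 (0.691 to 1.08) and 0.969 (0.701 to 1.34). In Kupffer cluster 14 they were 1.39 (0.882 to 2.24) and 0.637 (0.416 to 0.972). In hepatocytes both genes were lower in 6 of 7 clusters, and in cluster 13 the ratios were 1.45 for Hspa1b (1.05 to 1.995) and 1.09 for Hspa1a (0.782 to 1.51). The share of cells with a UMI was compared after thinning every cell to 1539 UMIs, the 20th percentile of depth, and leaving out shallower cells. Hspa1b was then detected in 27.5% of 1142 Kupffer cells of the knockout-labelled library (24.9% to 30.2%) and in 45.3% of 959 of the wild-type library (42.1% to 48.5%). Without thinning these shares were 49.4% and 59.1%. Endothelial cells had Hspa1a in 35.7% and 44.5% of thinned cells, and stellate cells in 40.1% and 50.9%. The lowest share was that of hepatocytes, 1.80% and 3.63%, which is given as a reference for free RNA. Those cells had median depths of 5402 and 4883 UMIs before thinning, against 8269 and 8681 in endothelial cells.

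**Figure D3:**
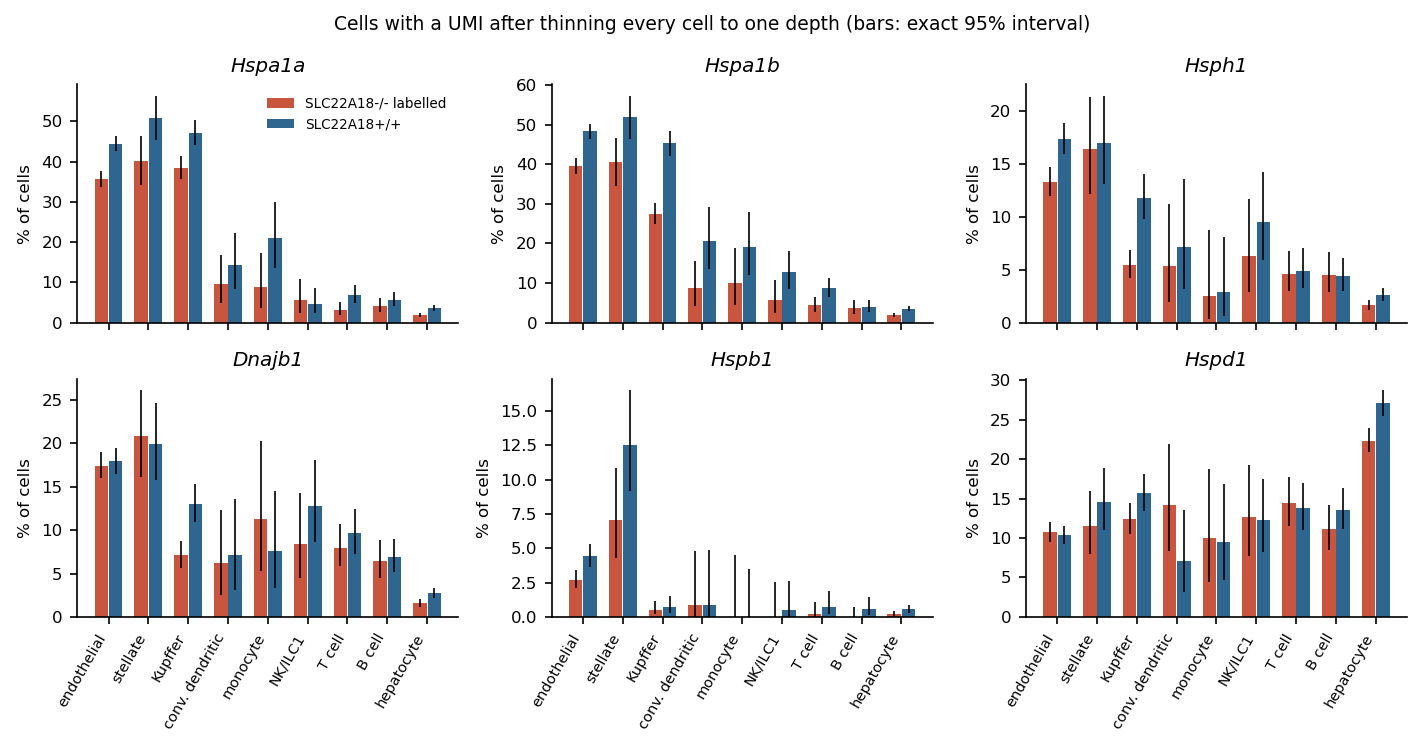
Share of cells with at least 1 UMI of 6 genes (vertical axes, percent of cells) in the 9 classes (horizontal axes) after every cell was thinned to 1539 UMIs; bars are the 2 libraries and lines are exact 95% intervals. Hspa1b is detected in 27.5% of Kupffer cells of the knockout-labelled library and 45.3% of the wild-type library, and its intervals do not overlap there or in endothelial cells.

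In dendritic cells the HSP70 sum was 201 and 346 CPM, a ratio of 0.582 (0.508 to 0.665), with 0.591 for Hspa1a and 0.572 for Hspa1b. In lymphocytes and monocytes the ratio of the HSP70 sum was further below 1, at levels far below those of the sinusoidal classes. This ratio was 0.312 in monocytes (0.239 to 0.402), 0.396 in B cells (0.329 to 0.476), 0.463 in T cells (0.402 to 0.533) and 0.503 in NK cells and ILC1 (0.365 to 0.685, from 57 and 159 UMIs), the last just short of a factor of 2. The UMIs of one gene over the other differed between the libraries in these cells: Hspa1b over Hspa1a was 0.630 and 1.40 in monocytes and 0.900 and 2.06 in NK cells and ILC1. The values of the single genes that follow share the uncertainty over how well their reads can be told apart. Hspa1b in monocytes had 29 and 189 UMIs, or 44.9 and 217 CPM, a ratio of 0.207 (0.135 to 0.307). Hspa1a in monocytes had 71.2 and 155 CPM, a ratio of 0.459 (0.321 to 0.646); 0.868% of all genes met the size rule as lower in this class and 3.74% as higher. In the thinned cells Hspa1b was detected in 10% of 80 monocytes (4.42% to 18.8%) and 19.0% of 105 (12.0% to 27.9%), so that these intervals overlap. Hspa1b met the size rule under 12 and Hspa1a under 9 of the 13 alternatives in which monocytes could be compared. In NK cells and ILC1 Hspa1b had 27 and 107 UMIs, a ratio of 0.354 (0.223 to 0.545; 0.84% of genes met the rule). Hspa1a in the same cells stood at 37.3 and 46.1 CPM, with a ratio whose interval includes 1 (0.810, 0.499 to 1.29).

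In T cells both genes met the rule, which 0.079% of genes did. Hspa1a stood at 34.03 and 68.3 CPM (ratio 0.498, 0.401 to 0.617) and Hspa1b at 41.6 and 95.01 CPM (0.438, 0.361 to 0.529). Median depth differed between the T cells of the libraries, at 2198 and 4042 UMIs. After thinning to equal depth Hspa1b was detected in 4.38% (2.80% to 6.501%) and 8.71% (6.49% to 11.4%) of T cells. With the doublet calls kept the ratios were 0.650 for Hspa1a and 0.531 for Hspa1b, and the rule was met under 10 and 14 of 16 alternatives.

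In B cells, where 0.283% of genes met the rule, Hspa1a stood at 35.2 and 74.8 CPM (ratio 0.471, 0.363 to 0.606) and Hspa1b at 29.2 and 87.7 CPM (0.333, 0.252 to 0.435). A few cells carried this difference. In the wild-type library the 1% of B cells with most UMIs held 71.6% of the Hspa1b UMIs, and the thinned shares of cells, 3.70% and 3.95%, had overlapping intervals (2.24% to 5.72% and 2.64% to 5.66%). B cell cluster 9, with a median of 1158 UMIs per cell, had 22.1 and 314 CPM of Hspa1b, and cluster 10, the larger, had 30.5 and 45.8 CPM. In cluster 9 of the wild-type library the UMIs came from 21 of 351 cells, 1 of which held 52, and all 12 endothelial markers were detected there at 18.1% and 22.2% of their level in endothelial cells. With the doublet calls kept the B cell ratios were 1.006 for Hspa1a and 0.786 for Hspa1b, and the rule was met under 8 and 9 of 16 alternatives.

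RNA of the sinusoidal cells was present in these classes, and its amount is given here beside the result. The 12 endothelial markers summed to 887 and 1150.2 CPM in B cells, 743 and 663.5 CPM in T cells, 276 and 306 CPM in NK cells and ILC1 and 692 and 589.9 CPM in monocytes. The 12 Kupffer markers summed to 379 and 386 CPM in B cells, 467 and 335 CPM in T cells, 291 and 273 CPM in NK cells and ILC1 and 959 and 1165 CPM in monocytes. All markers of both lists were detected in these 4 classes. The 12 stellate markers summed to 88.9 and 129 CPM in B cells, 84.0 and 98.1 CPM in T cells and 51.0 and 89.5 CPM in NK cells and ILC1, where 3 of them were at 0 in each library, Pdgfrb and Ngfr among them both times. Ngfr was at 0 in T cells of the knockout-labelled library and Des in those of the wild-type library.

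Among cells with at most 2 UMIs of these 36 markers the differences were smaller or had intervals that include 1. Hspa1b had a ratio of 0.847 in B cells (0.431 to 1.62; 17 and 26 UMIs), 0.660 in T cells (0.389 to 1.11; 28 and 37 UMIs) and 0.696 in NK cells and ILC1 (0.328 to 1.40; 13 and 26 UMIs). Hspa1a had a ratio of 0.579 in B cells (0.307 to 1.05), 1.13 in T cells (0.609 to 2.14) and 1.70 in NK cells and ILC1 (0.871 to 3.37). The part of sinusoidal RNA in the difference was not tested beyond this. Hspa1a in NK, T and hepatocyte classes and Hspa1b in hepatocytes stood under 10% of the level of their highest class in both libraries, a range in which free RNA cannot be told apart from the cells' own. Hspa1b stood at 4.52% and 10.03% in B cells, 6.44% and 10.9% in T cells and 5.19% and 10.8% in NK cells and ILC1. In B cells Hspa1a stood at 6.34% and 10.2%. These were under 10% in the knockout-labelled library and barely above it in the wild-type library, so the same limit applies. Hspa1b in monocytes stood at 6.94% and 24.9%.

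Hsph1, Dnajb1 and Bag3 work with HSP70. Hsph1 (chr5:149614287-149636376, minus strand) encodes the HSP110 nucleotide exchange factor, Dnajb1 (chr8:83608193-83612653, plus strand) a J-domain protein that delivers clients and stimulates the HSP70 ATPase, and Bag3 (chr7:128523616-128546981, plus strand) a co-chaperone that links HSP70 to selective autophagy. Hsph1 was lower in Kupffer cells of the knockout-labelled library, with 621 and 1313 UMIs, 47.2 and 114 CPM and a ratio of 0.414 (0.376 to 0.456), and 0.113% of genes met the size rule there. In thinned Kupffer cells it was detected in 5.43% (4.19% to 6.91%) and 11.8% (9.81% to 14.0%). It was 134 and 166 CPM in endothelial cells (ratio 0.808, 0.772 to 0.846) and 135 and 172 CPM in stellate cells (0.787, 0.713 to 0.868). In stellate cluster 31 its ratio was 1.87 (1.16 to 3.04), against 0.755 in stellate cluster 27. In T cells the gene stood at 45.6 and 46.2 CPM.

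Dnajb1 was lower in the knockout-labelled library in Kupffer cells, whereas in endothelial and stellate cells the interval of its ratio included 1. It stood at 68.4 and 119 CPM in Kupffer cells (ratio 0.573, 0.526 to 0.623), at 159.6 and 155.5 CPM in endothelial cells (1.03, 0.982 to 1.07) and at 215 and 199 CPM in stellate cells (1.08, 0.995 to 1.17). In B cells it was the 1 member whose interval lay above 1, at 57.5 and 43.1 CPM (1.33, 1.05 to 1.70). Bag3 stood at 137 and 152 CPM in endothelial cells, 123 and 145.5 CPM in stellate cells and 40.3 and 59.0 CPM in Kupffer cells, with ratios of 0.901, 0.847 and 0.682. The Kupffer ratio was thus the lowest of the 3 for each of Hsph1, Dnajb1 and Bag3. Most Kupffer UMIs of these genes came from cluster 0, and in Kupffer clusters 6 and 14 the intervals included 1. The ratios there were 1.19 and 0.404 for Hsph1, 0.865 and 1.41 for Dnajb1 and 1.18 and 0.915 for Bag3. With the unnamed clusters added to their nearest class, an alternative chosen after seeing the data, the Kupffer ratio of Hsph1 was 0.508, just short of the size rule.

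Hspb1 (chr5:135887919-135889563, plus strand) encodes HSP27, a small heat shock protein that holds unfolded proteins without ATP and associates with actin, and which is abundant in smooth muscle and endothelium. Its 2 heat shock element matches are shown above. It was lower in endothelial cells of the knockout-labelled library, with 697 and 1628 UMIs, 29.1 and 61.0 CPM and a ratio of 0.476 (0.435 to 0.521), and 0.0714% of genes met the size rule there. In stellate cells it stood at 61.7 and 106 CPM (ratio 0.583, 0.508 to 0.669). In the other 7 compared classes it was sparse, under 10% of the highest class in both libraries. Kupffer cells had 2.51 and 9.80 CPM, a ratio of 0.256 (0.168 to 0.380) from UMIs in 1.58% and 3.69% of cells, and 1 wild-type cell held 44 of the 113 UMIs. That ratio was 0.368 without the top cell of each library, 0.438 with UMIs per cell limited to the 99th percentile and 0.675 with the unnamed clusters added, the first and last chosen after seeing the data. NK cells and monocytes of the knockout-labelled library had 0 UMIs, for which 3 UMIs would be 3.73 and 4.65 CPM. Among classes too small to be compared, cholangiocytes, with 68 and 52 cells, had 56.2 and 158 CPM, and mesothelial cells, with 48 and 43 cells, had 55.3 and 152 CPM (25 and 35 UMIs).

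Within the vascular classes Hspb1 was concentrated in a few clusters. Cluster 31, the stellate-class cluster with the smooth muscle and fibroblast genes Acta2, Myh11 and Col1a1, had 320.1 and 596 CPM. Endothelial cluster 11, led by Mecom, Mgp and Vwf, had 179 and 484 CPM, and endothelial cluster 25, led by Rspo3, Wnt2, Vwf and Selp, had 84.5 and 150.1 CPM. Clusters 1 and 2, which hold most endothelial cells, had 12.7 and 17.4 CPM and 12.8 and 23.8 CPM. The wild-type level was higher in 5 of 5 endothelial and 2 of 2 stellate clusters with at least 20 UMIs. In cluster 11 of the wild-type library 1 cell held 344 of the 1628 endothelial UMIs. Without the cell with most Hspb1 UMIs in each library, an alternative chosen after seeing the data, the endothelial ratio was 0.576, and that of cluster 11 was 0.575, from 146 and 255 CPM. Hspb1 in endothelial cells met the size rule under 8 of 16 alternatives and lay between 0.474 and 0.726 in all 16. In thinned endothelial cells it was detected in 2.70% (2.09% to 3.42%) and 4.41% (3.66% to 5.28%).

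**Figure D4:**
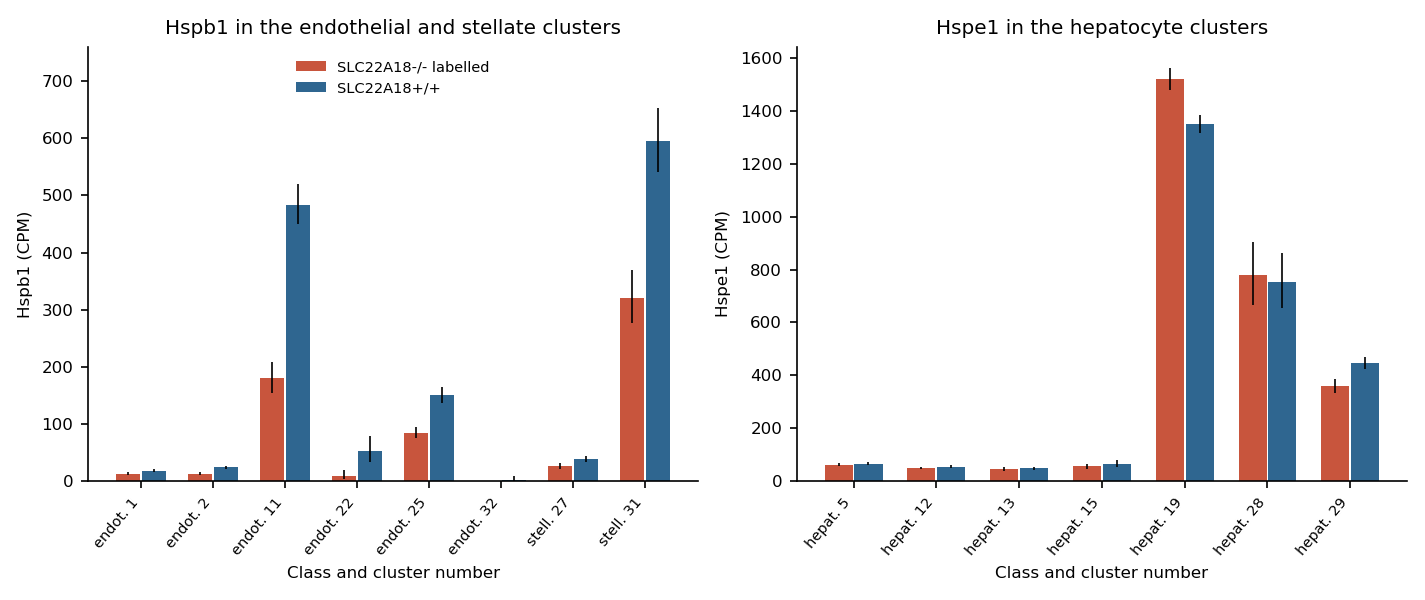
Level in CPM (vertical axes) of Hspb1 in the endothelial and stellate clusters and of Hspe1 in the hepatocyte clusters (horizontal axes, class and cluster number), with exact 95% Poisson lines for counting error. Hspb1 is highest in stellate cluster 31 and endothelial cluster 11 and higher in the wild-type library there, and Hspe1 is highest in hepatocyte cluster 19, where the knockout-labelled library is the higher one.

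Hspa8 and Hsp90aa1 encode cytosolic chaperones present in unstressed cells. Hspa8 (chr9:40800984-40810087, plus strand) makes HSC70, the constitutive relative of HSP70, and Hsp90aa1 (chr12:110690605-110702728, minus strand) makes the inducible isoform of HSP90, which matures kinases and steroid receptors. Hspa8 stood at 926 and 864 CPM in endothelial cells (ratio 1.07, 1.05 to 1.09), 885 and 829 CPM in stellate cells (1.07, 1.02 to 1.11) and 1034 and 1075 CPM in Kupffer cells (0.962, 0.939 to 0.986). Its inducible relatives had ratios of 0.531 to 0.764 in the same 3 classes. In dendritic cells, its highest class, it stood at 1679 and 1429.6 CPM (1.17, 1.11 to 1.24), with 242 UMIs of the knockout-labelled library in 1 cell. Hsp90aa1 stood at 281 and 359.5 CPM in Kupffer cells (ratio 0.782, 0.748 to 0.818), 243 and 269 CPM in endothelial cells (0.905, 0.874 to 0.937) and 325 and 314 CPM in T cells (1.04, 0.957 to 1.12). It varied less between classes than the HSP70 pair, and the lowest class was again the hepatocytes, at 72.4 and 102 CPM.

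Hspd1 (chr1:55077835-55088243, minus strand) and Hspe1 (chr1:55088132-55091307, plus strand) encode HSP60 and HSP10, the barrel and lid of the mitochondrial chaperonin. From the outward start of Hspd1, they share the upstream region whose heat shock element is printed above. Both were lower in hepatocytes of the knockout-labelled library, Hspd1 at 209 and 259.6 CPM (ratio 0.805, 0.778 to 0.833) and Hspe1 at 254 and 319 CPM (0.797, 0.773 to 0.822). The share of thinned hepatocytes with a UMI was 22.3% and 27.1% for Hspd1 and 20.5% and 26.1% for Hspe1. In endothelial cells Hspe1 stood at 115 and 116 CPM, and in T cells Hspd1 stood at 120.2 and 118.6 CPM, with intervals of the ratio that include 1.

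The hepatocyte clusters differed far more from each other than the libraries did. Cluster 19, marked by Sult2a2, Ass1 and Fabp1, had 1523 and 1350.3 CPM of Hspe1, 869.6 and 872.6 CPM of Hspd1 and 814 and 748 CPM of Hspa8. Clusters 5, 12, 13 and 15 had 43.9 to 65.7 CPM of Hspe1. Cluster 12 made up 987 of the hepatocytes in the knockout-labelled library and 601 in the wild-type library, and cluster 19 made up 510 and 648. With each cluster given the same weight in both libraries the hepatocyte ratios were 0.986 for Hspd1, 1.04 for Hspe1, 0.926 for Hspa8 and 0.896 for Hsp90aa1, whereas those of Hspa1a and Hspa1b were 0.689 and 0.638. The summed difference in the chaperonin genes was thus small at equal make-up of the class, and that in the HSP70 pair was nearly as large as without the weights. Single clusters differed in both directions. Hspe1 had a ratio of 0.809 (0.740 to 0.884) in cluster 29 and 1.13 (1.09 to 1.17) in cluster 19. Hspd1 had a ratio of 0.816 (0.741 to 0.898) in cluster 29 and 1.21 (1.05 to 1.39) in cluster 13.

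The second comparison set the members beside other chaperones and beside immediate early genes, which dissociation is also known to raise. The shares of all genes with intervals below and above 1 in each class, given above for the members, apply to these lists as well. In endothelial and stellate cells more immediate early genes had intervals above 1 than below, and in Kupffer cells they lay on both sides. Of 30 such genes, 15 had intervals above 1 and 8 below in endothelial cells, 19 above and 1 below in stellate cells, and 9 above and 10 below in Kupffer cells, with median log2 ratios of 0.04, 0.12 and 0.00. None met the size rule in any class. Fos, the AP-1 subunit, stood at 2628 and 2643 CPM in Kupffer cells (ratio 0.994), 2687 and 2505 CPM in endothelial cells (1.07) and 2974 and 2673 CPM in stellate cells (1.11). The AP-1 partner Jun was at 2919 and 2685 CPM in stellate cells (1.09), the phosphatase gene Dusp1 at 2618 and 2630.3 CPM in Kupffer cells (0.995), and the zinc finger gene Egr1 at 2442 and 2096 CPM in endothelial cells (1.16). In Kupffer cells Jun was lower in the knockout-labelled library, at 1701 and 1918 CPM (0.887, 0.870 to 0.903). All 30 genes together summed to 27779 and 28121 CPM in Kupffer cells and 22494 and 21669 CPM in endothelial cells.

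In the other 6 classes more immediate early genes had intervals below 1 than above. In hepatocytes 17 of 29 lay below 1 and 2 above, with a median log2 ratio of -0.22, and Zfp36, which encodes an mRNA-destabilising protein, stood at 133 and 214 CPM (ratio 0.620) beside its relative Zfp36l1 at 178 and 283 CPM (0.629). In T cells 18 of 29 lay below 1 and 2 above (median -0.28), against 6.96% and 13.5% of all genes. In monocytes 19 of 28 lay below and 0 above (median -0.31), against 9.63% and 12.1% of all genes. In B cells 12 of 30 lay below and 1 above, in dendritic cells 12 of 30 below and 0 above, and in NK cells and ILC1 8 of 26 below and 2 above. Junb, an AP-1 subunit, stood at 1305 and 1675 CPM in T cells (0.779).

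The wider chaperone network, 58 genes of the HSP70, J-domain, HSP90 co-chaperone, BAG, small heat shock, CCT chaperonin and heat shock factor groups, was nearer to 1 than the members. Over all cells 34 of 57 measured genes lay below 1 and 2 above, with a median log2 ratio of -0.10 against 0.01 over all genes. In Kupffer cells 14 of 51 lay below and 3 above (median -0.10), in endothelial cells 17 of 53 below and 1 above (-0.08), in stellate cells 13 of 53 below and 0 above (-0.12) and in hepatocytes 24 of 55 below and 5 above (-0.11). The CCT chaperonin, which folds actin and tubulin, had 8 of 8 genes below 1 over all cells (median -0.16) and in hepatocytes (-0.25). Hsp90ab1, the constitutive HSP90, stood at 620.3 and 695.5 CPM over all cells (ratio 0.892), and Dnaja1, a J-domain partner of HSP70, at 269.8 and 309.6 CPM (0.871). Their ratios were 0.913 and 0.812 in Kupffer cells, 0.934 and 0.930 in endothelial cells and 0.934 and 0.927 in stellate cells. In hepatocytes Hsp90ab1 had a ratio of 0.746 and Hspa9, the mitochondrial HSP70, one of 0.855. The size rule was met by Hsf2, a heat shock factor, in dendritic cells (23 and 49 UMIs, ratio 0.487) and by Dnajb4 in monocytes as the higher one (32 and 21 UMIs, 2.05).

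The chaperones of the endoplasmic reticulum, a separate system under the unfolded protein response, had 13 of 15 genes below 1 in hepatocytes (median log2 ratio -0.37) and 0 above. In Kupffer cells 3 lay below and 5 above (median 0.03), and in B cells 0 lay below and 4 above (0.17). The hepatocyte counts depend on the make-up of the class. With each cluster given the same weight in both libraries, 7 of 10 members lay below 1 and 1 above (median -0.22), 10 of 55 network genes below and 4 above (-0.03), 10 of 15 endoplasmic chaperones below and 0 above (-0.13) and 17 of 29 immediate early genes below and 2 above (-0.20), against 0.02 over all genes.

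**Figure D5:**
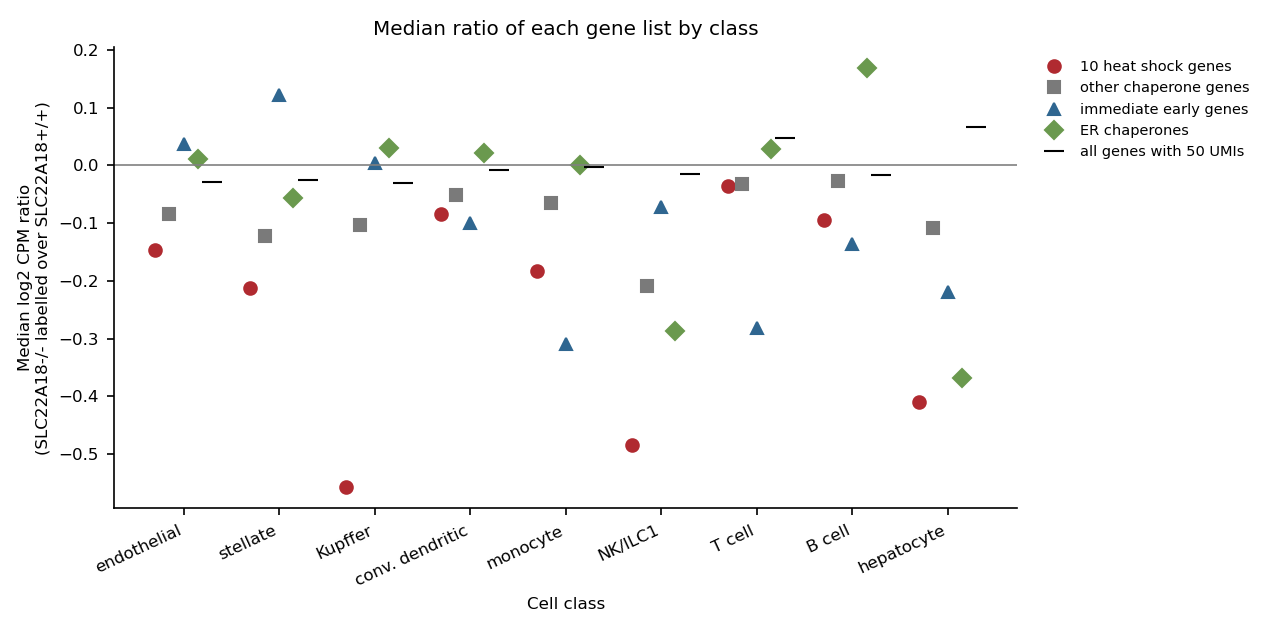
Median log2 CPM ratio of the knockout-labelled over the wild-type library (vertical axis) for the 10 heat shock genes, the other chaperone genes, the immediate early genes and the endoplasmic reticulum (ER) chaperones in each class (horizontal axis), with a dash for all genes with 50 UMIs. The members are at -0.56 in Kupffer cells while the immediate early genes are at 0.00, and in hepatocytes all 4 lists lie below all genes.

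The share of cells with UMIs of several inducible members differed between classes. No share expected from the level of each gene alone was computed. Of thinned Kupffer cells, 23.2% (20.8% to 25.8%) and 41.1% (37.95% to 44.3%) had UMIs of at least 2 of the 6 genes Hspa1a, Hspa1b, Hsph1, Hspb1, Dnajb1 and Bag3. The shares were 38.4% and 47.5% in endothelial cells, 44.6% and 53.9% in stellate cells and 0.510% and 1.11% in hepatocytes. B cells had 2.73% and 1.97%, the 1 class of the 9 in which the knockout-labelled share was the higher one. Across cells thinned to the same depth, the summed member UMIs and the summed immediate early UMIs had a Spearman correlation of 0.494 and 0.510 in endothelial cells, 0.427 and 0.490 in stellate cells, 0.386 and 0.459 in Kupffer cells and 0.092 and 0.066 in hepatocytes. With the mitochondrial share the correlation was 0.0049 and -0.012 in endothelial cells and 0.119 and 0.104 in Kupffer cells. With the UMIs of the cell before thinning it was 0.225 and 0.213 in endothelial cells and 0.275 and 0.313 in Kupffer cells. It was 0.083 and 0.187 in stellate cells and -0.111 and -0.069 in hepatocytes, so thinning did not remove every association with depth. Cells of 1 library share their dissociation and sequencing and are not replicates, so these values describe each library. Clusters of a class also differed in level, with Hspa1a at 24.7 and 51.5 CPM in endothelial cluster 32 and 548 and 618 CPM in cluster 1. The part of such differences in the correlations was not tested.

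The genes whose levels over clusters were most like those of a member differed by group. Over 53 points, each a cluster of at least 100 cells in 1 library, and 12275 genes, the Pearson correlation of log2(CPM + 10) with Hspa1a was highest for Hspa1b (0.967), Marcksl1 (0.953), Ier3 (0.940), Egr1 (0.927) and Laptm4a (0.925), of which Ier3 and Egr1 belong to the immediate early list. Hspa1a had a correlation of 0.850 with Dnajb1, 0.799 with Hsph1 and -0.24 with Hspd1. The genes most like Hspb1 were AU021092 (0.872), Bcam (0.866), Cav1 (0.846), Cavin1 (0.839) and Ccn2 (0.836). Cav1 and Cavin1 build caveolae, the membrane pits abundant in vascular cells. Hsp90aa1 was most like Hnrnpab (0.948), Hsp90ab1 (0.941), Ptma (0.934), Set (0.927) and H3f3b (0.911). Hspd1 was most like Ddt (0.946), Timm8a1 (0.945), Acadvl (0.940), Cisd3 (0.939) and Acads (0.937), and its partner Hspe1 ranked 215 at 0.798. Acadvl and Acads are enzymes of mitochondrial fatty acid oxidation, and Timm8a1 belongs to the mitochondrial protein import machinery. The points share libraries and cell types, so the correlations describe shared location only.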

How the data were processed

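Single-cell 3′ RNA libraries of mouse liver were aligned with STAR through Cell Ranger to mm10, per the submitters' processing notes, and the file headers give Cell Ranger 8.0.1. The deposited values are raw UMI counts per gene and barcode, per the file headers. Cells with at least 500 UMIs, 300 genes and at most 20% mitochondrial UMIs were kept. Doublets called by Scrublet at the threshold of the wild-type library (2.83% and 3.23% of cells) were removed. Clustering (scanpy 1.11.5, 2000 variable genes, 30 components, Leiden resolution 1) left out the heat shock, chaperone and immediate early genes. A cluster took the name of the marker list with the highest score and stayed unnamed with fewer than 3 markers, a high doublet score or a close second list. Counts were summed per class and library and given as CPM. Poisson, binomial and ratio intervals are exact (Clopper-Pearson for shares and ratios, 95%; scipy 1.17.1, numpy 2.4.6). Depth was 103478998 and 105556354 UMIs, and PCR copies are collapsed by the identifiers. No p-value was computed, because each genotype has 1 library. The code of the ratio intervals and the size rule was tested on simulated Poisson counts.

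All 10 members are named. Of the chaperone network and immediate early lists, the genes named per class are up to 3 that met the size rule in each direction, or else the 2 with most UMIs, given here for the classes described, and for likeness the 5 most like genes. Jun in Kupffer cells is named in addition. Names of endoplasmic reticulum chaperones are not given. The members and all lists were chosen with earlier results of these data known. Protein comparison was not used here. Of 33696 gene identifiers, 32012 were placed by GENCODE vM21. The alternatives were doublets, cell filters, resolution, clustering genes, cell and cluster weights, scaling, a limit on UMIs per cell, thinning, the pseudocount, and 5 added after seeing the data, on unnamed, low-mitochondrial and shallow clusters, single cells and sinusoidal markers.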

Additional observations from a re-analysis of the deposited data

How the results depend on the processing

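Under 16 alternatives, 5 of them chosen after seeing the data, no member met the size rule as higher in the knockout-labelled library. Against 9 member and class pairs that met it as lower, 4 did with doublet calls kept (3 of the 9, and Hspa1a in NK cells and ILC1 at 0.378). The number was also 4 with the listed genes allowed in clustering and with UMIs per cell limited to the 99th percentile (4 of the 9 each). With lymphocytes limited to those with at most 2 sinusoidal marker UMIs it was again 4 of the 9. No lymphocyte pair was among these, which lay in monocytes, Kupffer cells and endothelial cells, classes that this limit leaves unchanged. There were 5 at resolution 0.5 (5 of the 9), with cells of a class thinned to one depth (4 of the 9, and Hspa1b in Kupffer cells) and without clusters of under 2500 UMIs (4 of the 9, and Hspb1 in Kupffer cells). With each cell weighted equally there were 7, of which 4 were among the 9. Monocytes, with 2 of the 9, could not be compared at resolution 0.5, with the listed genes allowed or without clusters of under 2500 UMIs. Pairs with intervals above 1 numbered 4, 8 with doublet calls kept and 7 at resolution 0.5 or with the listed genes allowed. Of 83 ratios, 49 kept their side of 1 in every alternative and 34 crossed it. Of 1295 recomputed ratios, 140 lay outside the interval first given. Hspa1a reversed in B cells with doublet calls kept (1.006) and in T cells with at most 2 sinusoidal marker UMIs (1.13), and the cause was not tested. For the chaperone network there was 1 lower pair, 0 with doublet calls kept, at resolution 0.5, with listed genes allowed, with the 99th percentile limit and without the top cell. There were 2 with thinning and with lymphocytes limited to those with few marker UMIs. There was 1 higher pair, 0 at resolution 0.5, with listed genes allowed, with the percentile limit, with thinning, without shallow clusters and without the top cell, and 2 with each cell weighted equally. The immediate early genes had 0 lower and 0 higher pairs, 1 lower with each cell weighted equally, without clusters under 2% mitochondrial UMIs and in lymphocytes with few marker UMIs, and 1 higher in these and without shallow clusters. Without the clusters under 2% mitochondrial UMIs the hepatocyte ratios of Hspa1a and Hspa1b were 0.437 and 0.319. Without thinning, 156 of 180 shares of cells lay outside the interval of the thinned share. Of the 5 genes most like Hspa1a, Hspb1, Hsp90aa1 and Hspd1, a pseudocount of 1 kept 4, 1, 4 and 3 in this order. No paired analysis was possible because each genotype has 1 library. Depth limits the classes of under 300 cells, where several ratios rest on fewer than 50 UMIs per library.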
